A study of Homo sapiens with 18 samples.

Results

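The comparison sets cells that expressed the gene fusion SRF-PDGFRB against cells that expressed SRF alone, in all genes that could be tested. Its members are 6 of the 18 libraries of the series, 3 labelled SRF-PDGFRB and 3 labelled SRF, and 18544 of the 61487 identifiers in the count table passed the filter on low counts. The cells were MSC-hTERT, human mesenchymal stem cells immortalized with telomerase, and every group shared that line and a medium with serum, FGF-2, ascorbic acid and heparin. The other 12 libraries are 3 each of cells with pMSCV, a retroviral vector read here as the empty control, and of the fusions SRF-FOXO1, SRF-ICA1L and SRF-RELA. They entered the fit, and the vector and the other fusions are used below to place the levels of single genes. The labels do not say whether a group is 1 clone or a pool, how long the cells had carried the construct, or whether the 3 libraries of a group came from separate cultures. The p-values therefore measure the spread between these libraries, which may be technical.

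SRF, serum response factor, is a DNA-binding transcription factor that recognises the CArG box and drives immediate early genes with ternary complex factors and muscle and cytoskeletal genes with myocardin-related cofactors. PDGFRB is the beta receptor for platelet-derived growth factor, a receptor tyrosine kinase of mesenchymal cells, and such receptors signal through ERK, phosphoinositide kinases and STAT proteins. Interferons act through JAK kinases and STAT proteins, which bind GAS elements and induce chemokines, guanylate-binding proteins and, through CIITA, the MHC class II genes, while STAT5 also binds GAS elements and induces the feedback genes CISH and SOCS2.

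In SRF-PDGFRB, the interferon-gamma response genes CXCL9, APOL4 and GBP1 and the MHC class II genes HLA-DRA and HLA-DPA1 were higher than in SRF, and so was the STAT5 feedback gene CISH. XIRP1, an actin-binding gene of striated muscle, had the largest fold change among the 27 genes called without the replicate block explained below. SRF itself and 10 other genes were lower, among them sarcospan (SSPN), biliverdin reductase (BLVRA), the potassium channel gene KCNK15 and the EGR1 corepressor gene NAB2. All 3 SRF libraries were above all 3 vector libraries in each of the 11 lower genes. Because these genes were called with the same SRF libraries, high SRF levels were favoured, and the share over all genes was not computed.

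Levels are given as CPM, the usual scaling of a gene's count to the total of its library. Fold changes are log2 SRF-PDGFRB over SRF from edgeR's quasi-likelihood test, with the standard error (SE), and adjusted p-values are by Benjamini and Hochberg over the 18544 genes. A gene is called at an adjusted p-value under 0.05. Each test was run without and with the replicate number of the library as a block, which sets library 1 of SRF-PDGFRB against library 1 of SRF and likewise for 2 and 3. The labels do not say what a number marks. In the values, same-numbered SRF and SRF-PDGFRB libraries deviated together from their group means across genes, with correlations of 0.45, 0.38 and 0.38, against -0.33 to -0.13 for the 6 pairings of different numbers. Deviations from a mean of 3 libraries add up to 0, so the negative values follow from the positive ones and add no evidence.

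The 6 libraries held between 19362319 counts (SRF-PDGFRB replicate 3) and 29132937 counts (SRF-PDGFRB replicate 2). A count of 0 allows up to 3 counts, which is 0.103 to 0.155 CPM in these libraries and covers counting error only. The mesenchymal markers fixed for the cell line took 2.18% to 2.48% of the counts in SRF-PDGFRB and 2.43% to 3.12% in SRF, and 11 of 11 were tested. Of 15 leukocyte markers, CD2, CD3E and TYROBP had no count in any of the 6 libraries, and the summed level of the 15 was 5.66 to 8.18 CPM in SRF-PDGFRB and 4.19 to 7.5 CPM in SRF. The 13 mitochondrially encoded genes took 3.93% to 4.17% of the counts in SRF-PDGFRB and 4.07% to 6.16% in SRF.

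The constructs were read first. SRF was at 1036, 1122 and 678 CPM in the 3 SRF libraries, at 337, 160 and 261 CPM in the SRF-PDGFRB libraries and at 61.1, 64.4 and 57.3 CPM in the vector libraries. The 3 groups did not overlap, with SRF-PDGFRB between the vector and SRF. Reads of the native gene and of the construct are not separated in these counts. The log2 fold change of SRF-PDGFRB over SRF was -1.94, called in both fits (SE 0.23, edgeR adjusted p 0.00319; 0.00115 with the block). SRF was therefore not matched between the groups, and the amount of the SRF construct and the fusion partner cannot be told apart in the differences between SRF-PDGFRB and SRF. Against the other fusions, whose SRF level was between 151 and 328 CPM, the log2 fold change of SRF was -0.10 (0.15 without SRF-PDGFRB replicate 2) and not called. PDGFRB was at 621, 499 and 357 CPM in SRF and 930, 526 and 673 CPM in SRF-PDGFRB. The groups overlapped, the fusion library was higher in 3 of 3 same-numbered pairs, and no call was made at 0.49 on the log2 scale (SE 0.23, edgeR adjusted p 0.407; 0.163 with the block). Against the other fusions PDGFRB was at 0.66 (SE 0.18, edgeR adjusted p 0.108) and was called with the block only, at 0.64 (edgeR adjusted p 0.0213). The native PDGFRB gene was abundant in the vector libraries, at 502, 392 and 381 CPM.

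Without the block, 27 of 18544 genes were called, which is 0.146% of the genes tested, 16 higher in SRF-PDGFRB (0.0863%) and 11 lower (0.0593%). With the block, 434 were called (2.34%), 225 higher (1.21%) and 209 lower (1.13%), and they include each of the 27. The block left the fold changes of the 27 nearly as they were and reduced the spread: the common biological coefficient of variation fell from 0.225 to 0.150. At an unadjusted p-value under 0.05 there were 2230 genes without the block and 3550 with it. The 16 higher genes had a median log2 fold change of 2.14 and the 11 lower genes one of -1.43, while the median over all genes tested was -0.01. Among the 434 genes the medians were smaller, 0.84 for the 225 higher and -0.78 for the 209 lower. At the shares called over all genes, a short list often holds no call, so 0 called does not set a list apart.

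In all 27 genes the 3 SRF-PDGFRB libraries lay on one side of the 3 SRF libraries, as they did in 17.9% of all genes tested, 10.9% higher and 7.07% lower. With the block, 187 of the 225 higher genes and 166 of the 209 lower genes had no overlap. The count without the block depended on single libraries. It was 6, 9 and 6 without SRF replicate 1, 2 and 3, and 3, 17 and 7 without SRF-PDGFRB replicate 1, 2 and 3. APOL4, PTER and SRF were called in each of these 6 fits, and 7 of the 27 genes in none of them. With the block the counts were 325, 250 and 223 without SRF replicate 1, 2 and 3, and 85, 241 and 84 without SRF-PDGFRB replicate 1, 2 and 3, and 20 of the 27 were called in each fit.

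**Figure D1:**
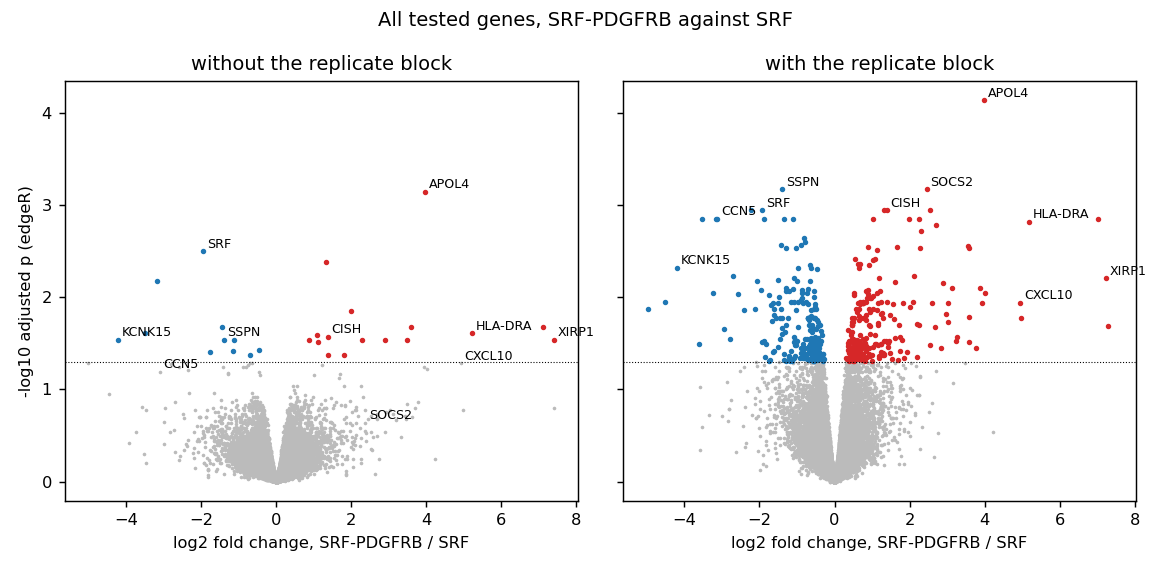
Each point is 1 of 18544 genes, with the log2 fold change of SRF-PDGFRB over SRF on the x axis and -log10 of the edgeR adjusted p-value on the y axis, without (left) and with (right) the replicate block. The dotted line marks an adjusted p-value of 0.05, with 16 higher (red) and 11 lower (blue) genes above it on the left and 225 and 209 on the right.

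The interferon-gamma response was the list with the most called members. Of its 36 genes 33 were tested, and 0 were called lower in either fit. Without the block 3 were called higher (APOL4, CXCL9 and GBP1), which is 9.09% against 0.0863% of all genes tested. With the block 10 were called higher, which is 30.3% against 1.21%. CXCL9 passed the count filter only through its SRF-PDGFRB libraries, which favours its place in both shares. At an unadjusted p-value under 0.05 in the fit without the block, 14 of the 33 were higher and 0 lower. Over all genes 2230 of 18544 had such a p-value in either direction. DESeq2's Wald test called 9 of the list and 229 of 18542 genes in all. The list's median log2 fold change was 0.50. In 20 of the 33 every SRF-PDGFRB library was above every SRF library, as in 10.9% of all genes tested.

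CXCL9, a chemokine that attracts activated T cells, was nearly silent in SRF, with 2, 0 and 0 counts, and had 233, 36 and 60 counts in SRF-PDGFRB, or 8.11, 1.24 and 3.10 CPM. All 3 fusion libraries were higher, replicate 1 most. The ratio of the pooled CPM was 175 (exact 95% counting interval 47.9 to 1447), and the difference was called (edgeR adjusted p 0.0211; 0.00141 with the block). CXCL10, which acts on the same receptor, was at 1.52, 0.306 and 2.33 CPM in SRF and 59.9, 29.9 and 40.9 CPM in SRF-PDGFRB. The groups were far apart at 4.92 on the log2 scale (SE 0.91), and the call was made only with the block (edgeR adjusted p 0.0522; 0.0116 with the block). With the block it was lost in 2 of the 6 fits that left out 1 library, with an adjusted p-value of 0.0678 without SRF-PDGFRB replicate 1. CXCL11, the remaining ligand of that receptor, had a log2 fold change of 3.47 and was not called (edgeR adjusted p 0.0512 with the block).

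APOL4, of the apolipoprotein L family, had the smallest p-value of all genes in both fits. It was at 0.297, 0.421 and 0.729 CPM in SRF and 6.30, 7.14 and 10.4 CPM in SRF-PDGFRB. The log2 fold change reached 3.98 (SE 0.41, edgeR adjusted p 0.000726; 7.31e-05 with the block). Other genes of the family had smaller values: log2 fold changes were 0.50 for APOL1, 0.24 for APOL2, 0.05 for APOL3 and 0.40 for APOL6, and none of these 4 was called in either fit. GBP1, a guanylate-binding protein of cell-autonomous defence, was at 67.8, 48.8 and 75.8 CPM in SRF and 134, 120 and 110 CPM in SRF-PDGFRB. The groups did not overlap, with a value of 0.88 on the log2 scale (SE 0.15, edgeR adjusted p 0.0290; 0.00827 with the block). Without the block GBP1 lost its call in 5 of the 6 fits that left out 1 library and CXCL9 in 4, with adjusted p-values up to 0.149 without SRF-PDGFRB replicate 1 and 0.0998 without SRF replicate 3. With the block GBP1 lost it in 1, at 0.0574 without SRF-PDGFRB replicate 1. GBP4 was called with the block only, at 1.14 (SE 0.40, edgeR adjusted p 0.296; 0.00627 with the block).

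The other members called with the block only were IDO1, CD274, SECTM1, SOCS1 and WARS1. IDO1, which degrades tryptophan, was at 3.63, 0.727 and 2.36 CPM in SRF and 21.4, 5.56 and 14.9 CPM in SRF-PDGFRB. Replicate 2 was lowest in both groups. Each fusion library was above its same-numbered SRF library, at 2.59 on the log2 scale (SE 0.99, edgeR adjusted p 0.328; 0.00165 with the block). CD274, an immune checkpoint ligand, was at 6.94, 7.0 and 8.57 CPM in SRF and 17.6, 40.6 and 16.3 CPM in SRF-PDGFRB, with replicate 2 the highest fusion library (log2 fold change 1.70, SE 0.35, edgeR adjusted p 0.0683; 0.00689 with the block). SECTM1 had a log2 fold change of 1.47 and WARS1, the tryptophanyl-tRNA synthetase, one of 0.52, and both calls with the block were lost in 5 of the 6 fits that left out 1 library, at 0.0654 without SRF-PDGFRB replicate 3 for SECTM1 and 0.246 without SRF-PDGFRB replicate 1 for WARS1. IRF1 at 0.29 and ICAM1 at 0.22 were not called in either fit. The complement proteases C1R at -0.53 and C1S at -0.54 were below 0 and not called.

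MHC class II genes, which present peptides to helper T cells, gave 2 calls of 10 tested without the block and 4 with it, all higher. That is 20% and 40%, against 0.0863% and 1.21% of all genes tested. HLA-DRA passed the count filter only through its SRF-PDGFRB libraries, which favours its place in both shares. The list's median log2 fold change was 0.84. HLA-DRA, the alpha chain of the DR molecule, had 0, 1 and 2 counts in SRF and 70, 18 and 33 counts in SRF-PDGFRB, or 2.44, 0.618 and 1.70 CPM. The pooled CPM ratio was 42.8 (exact 95% counting interval 14.3 to 210), and the difference was called (edgeR adjusted p 0.0246; 0.00153 with the block). HLA-DPA1 was at 0.223, 0.0383 and 0.278 CPM in SRF and 2.86, 0.995 and 3.20 CPM in SRF-PDGFRB, at 3.60 on the log2 scale (SE 0.56, edgeR adjusted p 0.0211; 0.00296 with the block). HLA-DPA1 overlaps HLA-DPB1, which was at 1.97 and not called. In HLA-DRA and HLA-DPA1 replicate 2 was the lowest fusion library and still above every SRF library. Without the block both lost the call in 5 of the 6 fits that left out 1 library, with adjusted p-values up to 0.106 and 0.0894 without SRF replicate 1, and with it in 0 of 6. These are low levels: a few CPM or less in bulk RNA, in which few cells with a high level and many cells with a low level cannot be told apart.

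The class II machinery had smaller fold changes. CD74, the invariant chain, was at 3.45, 1.91 and 3.99 CPM in SRF and 12.3, 5.94 and 12.8 CPM in SRF-PDGFRB (log2 fold change 1.68, SE 0.35, edgeR adjusted p 0.0757; 0.00282 with the block). CIITA, the class II transactivator, was at 1.04, 1.42 and 0.903 CPM in SRF and 2.54, 2.33 and 2.74 CPM in SRF-PDGFRB (log2 fold change 1.14, SE 0.30, edgeR adjusted p 0.161; 0.0202 with the block). Both genes had no overlap between the groups. The call of CIITA with the block was lost in 4 of the 6 fits that left out 1 library, with an adjusted p-value up to 0.136 without SRF-PDGFRB replicate 1. RFX5 at 0.10, RFXAP at -0.16 and RFXANK at -0.23, whose products bind class II promoters, were not called. Of the 7 members that did not pass the filter, HLA-DRB1 had 0 counts in each SRF library and 26, 5 and 7 in SRF-PDGFRB, at least 4.36-fold higher when 3 counts per library are allowed for 0. HLA-DRB1 was named after its values were seen, and its reads could be shared with similar class II genes.

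In the MHC class I list 0 of its 18 tested members were called by edgeR in either fit or by DESeq2, and its median log2 fold change was -0.06. With 0.146% of all genes tested called without the block and 2.34% with it, this 0 does not set class I apart. At an unadjusted p-value under 0.05 it had 2 members without the block, 1 higher and 1 lower. TAP1, the peptide transporter, had 0.39 and B2M -0.25. The list of type I interferon genes had a median of 0.28, with 33 of 40 positive. RSAD2 was its 1 called member, with the block only (log2 fold change 2.69, SE 0.78, edgeR adjusted p 0.207; 0.0208 with the block), and 0 were called without it. That 1 call is 2.5% of the list, against 2.34% of all genes tested. The call was lost in 5 of the 6 fits that left out 1 library, with an adjusted p-value up to 0.136 without SRF-PDGFRB replicate 1. In this list 5 members were higher at an unadjusted p-value under 0.05 without the block, and DESeq2 called 1. Common genes of the type I list were near 0, with ISG15 at -0.08, IFI6 at 0.08 and IFIT1 at 0.19, while MX1 at 1.71 and MX2 at 2.23 were not called. IFNG had no count in any of the 18 libraries, and IFNB1 reached at most 0.111 CPM. None of IFNGR1 at -0.07, IFNGR2 at 0.19, IFNAR1 at 0.04 and IFNAR2 at 0.15 was called in either fit.

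**Figure D2:**
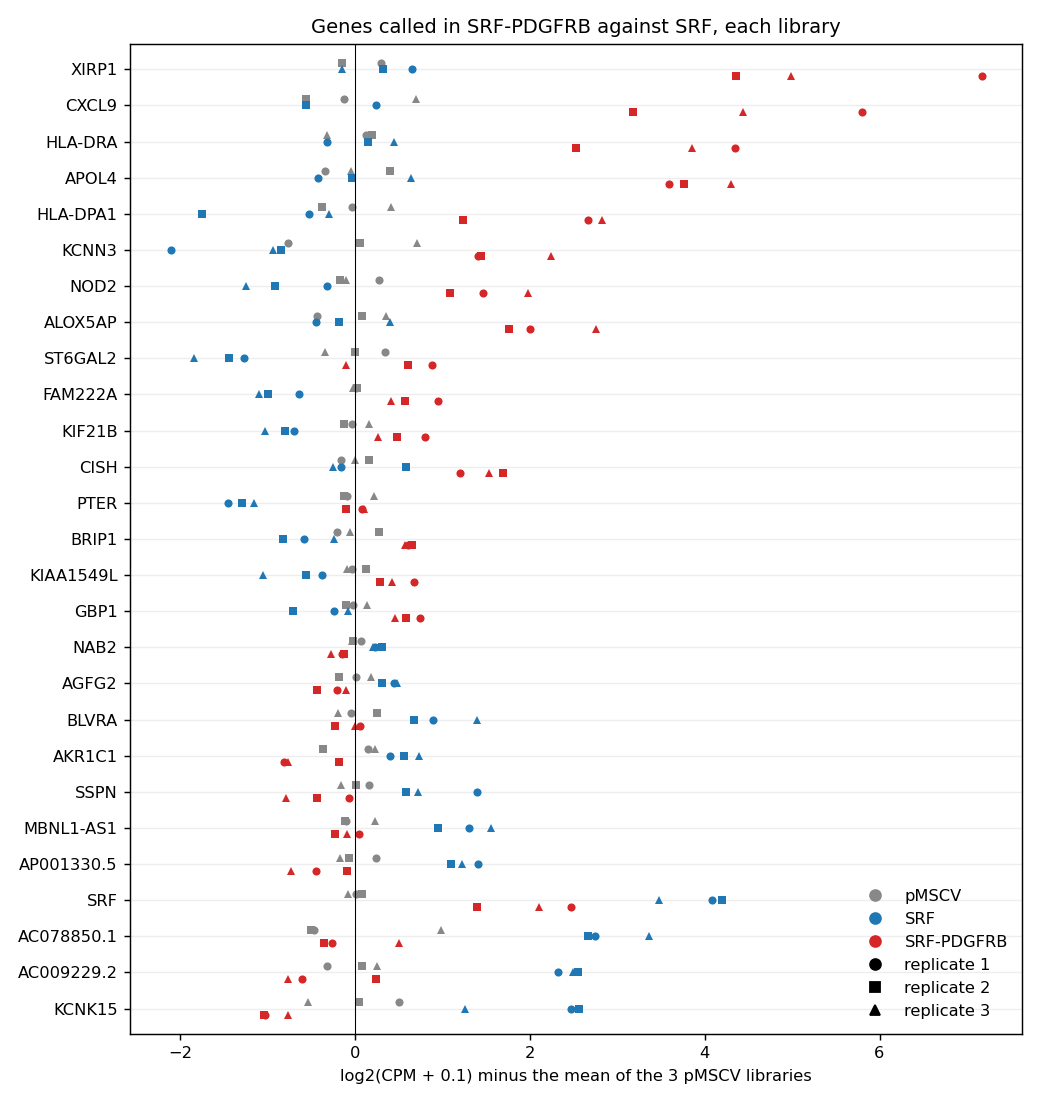
Each row is 1 of the 27 genes called without the block, and each point is a library, as log2(CPM + 0.1) minus the mean of the 3 vector libraries, with colour for the group and shape for the replicate number. The SRF and SRF-PDGFRB points do not overlap in any row, and in the 11 lower genes the SRF points lie above the vector points. The rows were chosen by the test on these same SRF and SRF-PDGFRB libraries.

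Of 18 STAT5 and SOCS feedback genes tested, 1 was called without the block (CISH), which is 5.56% against 0.146% of all genes tested. With the block 3 were called (CISH, SOCS2 and SOCS1), which is 16.7% against 2.34%. All were higher, while the list's median log2 fold change was 0.01. CISH, a SOCS-family inhibitor induced by STAT5, was at 3.04, 5.16 and 2.85 CPM in SRF and 7.97, 11.2 and 10.1 CPM in SRF-PDGFRB. Every fusion library was above every one of the other 15 libraries of the series, at 1.37 on the log2 scale (SE 0.23, edgeR adjusted p 0.0269; 0.00115 with the block). Without the block the call was lost in 5 of the 6 fits that left out 1 library, with an adjusted p-value up to 0.120 without SRF replicate 3, and with the block it was lost in 0 of 6.

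SOCS2 shows what the block does. Its level was 2.26, 7.15 and 12.5 CPM in SRF and 17.7, 36.5 and 63.3 CPM in SRF-PDGFRB, so that within each group replicate 1 was lowest and replicate 3 highest. The log2 ratios of the same-numbered pairs were 2.88, 2.34 and 2.26. Without the block the log2 fold change of 2.37 had an SE of 0.73 (edgeR adjusted p 0.231), and with it the fold change of 2.46 had an SE of 0.26 (edgeR adjusted p 0.000676). SOCS1, induced by interferons and cytokines, was at 5.12, 5.24 and 8.51 CPM in SRF and 9.12, 13.9 and 21.0 CPM in SRF-PDGFRB (edgeR adjusted p 0.228; 0.0116 with the block). Its call with the block was lost in 2 of the 6 fits that left out 1 library, with an adjusted p-value of 0.0654 without SRF-PDGFRB replicate 3. SOCS3 at -0.48, PIM1 at -0.02, BCL6 at -0.16, STAT5A at -0.17, STAT5B at 0.13 and JAK2 at 0.25 were not called in either fit.

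**Figure D3:**
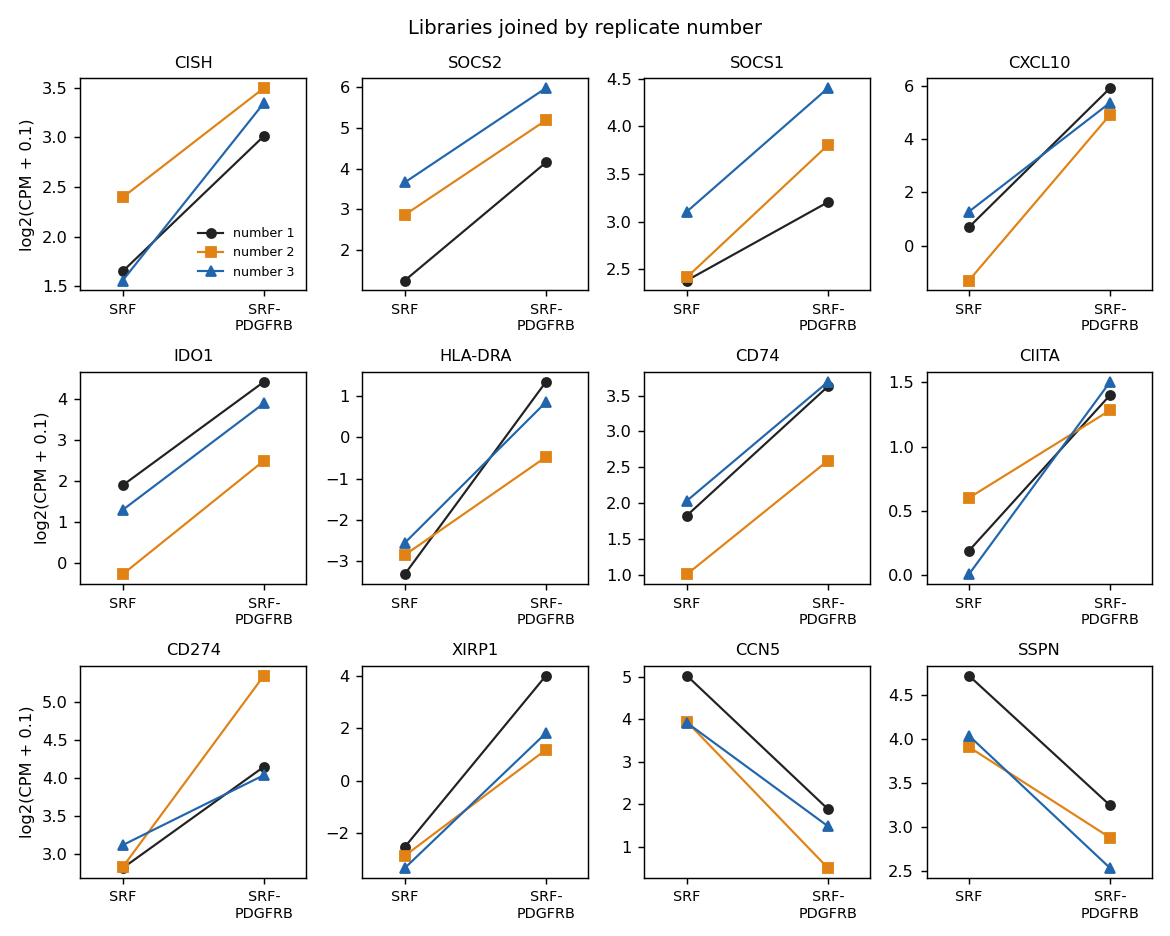
Lines join the SRF and SRF-PDGFRB libraries of the same replicate number for 12 genes, with log2(CPM + 0.1) on the y axis. In SOCS2 and IDO1 the 3 lines start at different levels and run nearly parallel, and in each panel all 3 lines have the same direction.

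The sequences before the start sites of the leading interferon, STAT and lower genes are shown because the pathways above act through short known motifs. Promoters were taken from RefSeq on GRCh38.p14 as the 250 bases before the gene start, and 12 of the 16 higher and 6 of the 11 lower genes had an entry. The motifs searched on both strands were the GAS element TTCNNNGAA, the core of the interferon response element (GAAA, any 2 bases, GAAA), the CArG box and the CCAAT box. Among 34943 promoters 6.56% held the GAS letters, 3.02% the GAAA pair, 1.17% the CArG box and 32.0% the CCAAT box. The CCAAT box was in 6 of the 12 higher and 4 of the 6 lower genes with an entry, and it is not marked below. Capitals mark the GAS matches in CISH, the GAAA pair in CXCL9, CXCL10 and GBP1, and the CArG box in SSPN, and each sequence reads 5′ to 3′ on the gene's strand.

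CISH, chr3:50611775-50612024, minus strand: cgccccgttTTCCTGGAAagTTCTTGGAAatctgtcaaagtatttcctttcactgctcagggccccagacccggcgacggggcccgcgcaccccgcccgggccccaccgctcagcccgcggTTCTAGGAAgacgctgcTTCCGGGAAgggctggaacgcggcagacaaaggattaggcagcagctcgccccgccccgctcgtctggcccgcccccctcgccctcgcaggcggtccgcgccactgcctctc

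CXCL9, chr4:76007510-76007759, minus strand: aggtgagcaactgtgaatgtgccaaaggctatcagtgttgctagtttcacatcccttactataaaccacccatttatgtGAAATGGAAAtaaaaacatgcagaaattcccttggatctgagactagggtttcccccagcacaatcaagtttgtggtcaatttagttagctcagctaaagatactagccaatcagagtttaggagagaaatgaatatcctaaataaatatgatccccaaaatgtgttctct

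CXCL10, chr4:76023498-76023747, minus strand: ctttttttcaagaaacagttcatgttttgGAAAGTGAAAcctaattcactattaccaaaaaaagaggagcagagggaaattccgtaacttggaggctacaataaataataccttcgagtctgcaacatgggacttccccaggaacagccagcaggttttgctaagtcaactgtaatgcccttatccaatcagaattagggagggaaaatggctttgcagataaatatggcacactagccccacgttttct

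GBP1, chr1:89065209-89065458, minus strand: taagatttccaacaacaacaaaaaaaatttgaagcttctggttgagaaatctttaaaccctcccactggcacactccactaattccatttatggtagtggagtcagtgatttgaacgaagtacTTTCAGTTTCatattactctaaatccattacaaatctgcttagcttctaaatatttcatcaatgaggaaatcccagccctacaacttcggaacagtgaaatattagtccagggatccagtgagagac

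SSPN, chr12:26195086-26195335, plus strand: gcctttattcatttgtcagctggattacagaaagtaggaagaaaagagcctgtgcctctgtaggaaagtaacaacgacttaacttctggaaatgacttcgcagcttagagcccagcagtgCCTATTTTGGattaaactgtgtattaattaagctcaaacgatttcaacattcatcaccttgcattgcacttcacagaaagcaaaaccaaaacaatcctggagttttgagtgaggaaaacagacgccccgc

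CISH held 4 GAS matches, which start 241, 230, 129 and 112 bases before the gene start, and it was the 1 gene with this motif among the 12 higher genes with an entry. CXCL9 and GBP1 were the 2 of those 12 with the GAAA pair, 171 and 127 bases before the start, and in GBP1 the match is on the opposite strand. CXCL10, called with the block only, held it 221 bases before the start. SSPN and SRF were the 2 of 6 lower genes with a CArG box, 130 bases before the start in SSPN. SSPN also held 1 GAS match and GBP1 a CArG box, which are left in lower case. The RefSeq start of CXCL10 is also the gene start in GENCODE release 29, the higher coordinate on the minus strand. The RefSeq start of CXCL9 lies outside the GENCODE gene and those of CISH, GBP1 and SSPN lie inside it. A match is a description of the letters, not a site or a cause.

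XIRP1 encodes an Xin repeat protein of intercalated discs and muscle attachment sites. It had 2, 1 and 0 counts in SRF and 455, 63 and 66 in SRF-PDGFRB, or 15.8, 2.16 and 3.41 CPM. Every fusion library was high and replicate 1 stood apart. The pooled CPM ratio was 207 (exact 95% counting interval 70.3 to 1004), and the difference was called (edgeR adjusted p 0.0290; 0.00627 with the block). Without the block the call was lost in 5 of the 6 fits that left out 1 library, at up to 0.138 without SRF replicate 3. XIRP1 was the 1 called member of 12 striated muscle genes tested in either fit, and its relative XIRP2 was at -0.08. That is 8.33% of the list, against 0.146% of all genes tested without the block and 2.34% with it. XIRP1 passed the count filter only through its SRF-PDGFRB libraries, which favours this share. ANKRD1 at 1.58 and ACTC1 at 0.61 were not called, and MYOD1, MYF5 and MYOG did not pass the filter. In the plot of called genes across the 6 groups, XIRP1 was also above 1 CPM in 1 library labelled SRF-FOXO1, at 1.17 CPM.

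The remaining higher genes come from several functions. KCNN3, a calcium-activated potassium channel, was at 0.0371, 0.230 and 0.208 CPM in SRF and 1.46, 1.51 and 2.69 CPM in SRF-PDGFRB (log2 fold change 3.48, SE 0.60, edgeR adjusted p 0.0290; 0.00281 with the block). NOD2, a cytosolic sensor of bacterial cell wall fragments, was at 0.223, 0.115 and 0.0694 CPM in SRF and 1.01, 0.755 and 1.5 CPM in SRF-PDGFRB (log2 fold change 2.91, SE 0.51, edgeR adjusted p 0.0291; 0.00697 with the block). ALOX5AP, which presents arachidonic acid for leukotriene synthesis, was at 1.22, 1.49 and 2.29 CPM in SRF and 7.14, 6.04 and 12.1 CPM in SRF-PDGFRB (log2 fold change 2.28, SE 0.39, edgeR adjusted p 0.0290; 0.00293 with the block). In these 3 genes every fusion library was above every one of the other 15 libraries. Without the block, KCNN3 was called in 0 of the 6 fits that left out 1 library and NOD2 and ALOX5AP in 1 each, with adjusted p-values up to 0.132, 0.148 and 0.148, each without SRF-PDGFRB replicate 3.

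ST6GAL2 and PTER had another pattern, since SRF was the group that stood apart. ST6GAL2, a sialyltransferase, was at 15.6, 13.8 and 10.4 CPM in SRF, 69.7, 57.6 and 35.0 CPM in SRF-PDGFRB and 47.8, 37.7 and 29.7 CPM in the vector (log2 fold change 2.00, SE 0.29, edgeR adjusted p 0.0142; 0.00143 with the block). PTER, a phosphotriesterase-related gene, was at 2.04, 2.30 and 2.53 CPM in SRF, 6.09, 5.39 and 6.20 CPM in SRF-PDGFRB and 5.42, 5.29 and 6.75 CPM in the vector (log2 fold change 1.33, SE 0.17, edgeR adjusted p 0.00420; 0.00115 with the block). In both the fusion libraries overlapped the vector libraries and the SRF libraries were below all of them. The 9 libraries of the other fusions had ST6GAL2 between 36.3 and 78.2 CPM and PTER between 5.04 and 7.19 CPM, above every SRF library. Without the block ST6GAL2 lost its call in 3 of the 6 fits that left out 1 library, with an adjusted p-value up to 0.0792 without SRF replicate 3.

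FAM222A, KIF21B, BRIP1 and KIAA1549L complete the 16, with log2 fold changes of 1.82, 1.38, 1.11 and 1.07 and edgeR adjusted p-values of 0.0419, 0.0419, 0.0306 and 0.0260 without the block. BRIP1, a DNA helicase that binds BRCA1, was at 10.9, 9.22 and 13.8 CPM in SRF and 25.0, 25.8 and 24.4 CPM in SRF-PDGFRB. Its fusion libraries were close together and above every other library of the series. KIF21B, a kinesin motor, was at 1.82, 1.68 and 1.42 CPM in SRF and 5.29, 4.22 and 3.62 CPM in SRF-PDGFRB. Without the block FAM222A, KIF21B and BRIP1 were called in 0 of the 6 fits that left out 1 library and KIAA1549L in 2, with adjusted p-values up to 0.191, 0.189, 0.128 and 0.103, each without SRF-PDGFRB replicate 1. With the block, leaving out SRF-PDGFRB replicate 1 ended the calls of FAM222A and KIF21B (0.0811 for both).

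Among the lower genes, SSPN encodes sarcospan, a membrane protein of the dystrophin-glycoprotein complex. It was at 26.1, 14.9 and 16.3 CPM in SRF, 9.37, 7.24 and 5.68 CPM in SRF-PDGFRB and 11, 9.93 and 8.80 CPM in the vector. SRF was above both other groups, at -1.39 on the log2 scale (SE 0.24, edgeR adjusted p 0.0290; 0.000676 with the block). BLVRA, which reduces biliverdin to bilirubin, was at 26.6, 22.7 and 37.7 CPM in SRF and 14.8, 12.2 and 14.2 CPM in SRF-PDGFRB, with the vector at 13.8, 16.9 and 12.4 CPM (log2 fold change -1.12, SE 0.19, edgeR adjusted p 0.0290; 0.00805 with the block). AKR1C1, a steroid-inactivating reductase, was at 45.6, 51.0 and 57.4 CPM in SRF and 19.7, 30.5 and 20.3 CPM in SRF-PDGFRB (log2 fold change -1.16, SE 0.21, edgeR adjusted p 0.0385; 0.0112 with the block). Its relatives AKR1C2 and AKR1C3 had -0.64 and -0.71 (AKR1C3 called with the block, edgeR adjusted p 0.0463). Reads could have been split among genes of this family that are similar in sequence. Each of these 3 genes was called in 1 of the 6 fits that left out 1 library without the block, with adjusted p-values of 0.173 for SSPN, 0.148 for BLVRA and 0.240 for AKR1C1 without SRF-PDGFRB replicate 3. With the block BLVRA lost the call in 1 (0.0519 without SRF-PDGFRB replicate 3) and AKR1C1 in 3 (up to 0.0811 without SRF-PDGFRB replicate 1).

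NAB2, a corepressor of EGR1, had the smallest change among the 27 genes called without the block. It was at 54.8, 57.8 and 53.8 CPM in SRF and 42.0, 42.5 and 38.5 CPM in SRF-PDGFRB, a change of -0.47 on the log2 scale (SE 0.08, edgeR adjusted p 0.0377; 0.00501 with the block). Its fusion libraries were below every one of the other 15 libraries. It overlaps STAT6, whose log2 fold change of -0.18 was not called. AGFG2, with an ArfGAP domain, was at -0.70 (SE 0.13, edgeR adjusted p 0.0419; 0.00805 with the block). Both genes were called in 0 of the 6 fits that left out 1 library without the block, with adjusted p-values of 0.240 for NAB2 without SRF-PDGFRB replicate 3 and 0.199 for AGFG2 without SRF-PDGFRB replicate 2. With the block NAB2 was at 0.0519 without SRF-PDGFRB replicate 3.

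Among the 11 lower genes called without the block, those with the largest fold changes were of low level. KCNK15, a potassium channel subunit gene, had 49, 51 and 21 counts in SRF and 2, 2 and 2 in SRF-PDGFRB, or 1.82, 1.95 and 0.729 CPM against 0.0696, 0.0687 and 0.103 CPM. The pooled CPM was 19 times as high in SRF (exact 95% counting interval 8.48 to 52.8; edgeR adjusted p 0.0290; 0.00482 with the block). CCN5, a matricellular growth inhibitor beside it on chromosome 20, was at 32.7, 15.3 and 15.1 CPM in SRF and 3.59, 1.3 and 2.69 CPM in SRF-PDGFRB, and was called with the block only (log2 fold change -3.10, SE 0.61, edgeR adjusted p 0.0644; 0.00141 with the block). Without the block KCNK15 kept its call in 1 of the 6 fits that left out 1 library, at up to 0.160 without SRF-PDGFRB replicate 1. Both genes overlap the antisense gene KCNK15-AS1, which was at -1.21 and not called, and without a stated strand setting reads of overlapping genes cannot be told apart. On GRCh38, KCNK15 spans chr20:44745780-44752313 and CCN5 chr20:44714844-44728509, both on the plus strand.

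The noncoding genes AC078850.1, AC009229.2, AP001330.5 and MBNL1-AS1 were also lower. AC078850.1 (ENSG00000248187, chr4:128567972-128570531) was at 5.79, 5.47 and 8.89 CPM in SRF, 0.627, 0.584 and 1.14 CPM in SRF-PDGFRB and 0.531, 0.516 and 1.63 CPM in the vector. The fusion and vector libraries overlapped and SRF was apart, at -3.17 on the log2 scale (SE 0.43, edgeR adjusted p 0.00671; 0.00141 with the block). Without SRF-PDGFRB replicate 1 and the block its adjusted p-value was 0.0515. AC009229.2 had 108 counts in the SRF libraries and 9 in the SRF-PDGFRB libraries, and the pooled CPM was 11.3 times as high in SRF (exact 95% counting interval 5.74 to 25.4). It overlaps CYP1B1-AS1, which was at -1.44 and not called. MBNL1-AS1, antisense to the splicing factor gene MBNL1, was at -1.43 and AP001330.5 at -1.77, with edgeR adjusted p-values of 0.0211 and 0.0389, while MBNL1 itself was at 0.28 and not called. Without the block AP001330.5 was called in 0 of the 6 fits that left out 1 library and AC009229.2 and MBNL1-AS1 in 1 each. Their adjusted p-values reached 0.240 for AP001330.5 and 0.0904 for MBNL1-AS1 without SRF-PDGFRB replicate 3, and 0.147 for AC009229.2 without SRF-PDGFRB replicate 1. With the block AP001330.5 lost the call in 2, at up to 0.0811 without SRF-PDGFRB replicate 1.

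Placed beside the vector, 22 of the 27 genes had the vector between SRF and SRF-PDGFRB by fold change. The same held for 378 of the 434 genes called with the block. Genes called for a gap between SRF and SRF-PDGFRB favour a vector level between them, and the share over all genes was not computed. The 27 genes were also read by which group was farther from the vector. For 10 of the 11 lower genes the SRF mean was farther from the vector mean than the SRF-PDGFRB mean was. For 11 of the 16 higher genes SRF-PDGFRB was the farther one, and for 5 it was SRF. In 12 of the 16 every SRF-PDGFRB library was above every one of the other 15 libraries, and in 8 of the 16 every SRF library was below every vector library. The 16 genes were called with these same libraries, which favours both counts, and the shares over all genes were not computed. Nor were they computed for the counts by which group was farther from the vector. SRF-PDGFRB against the vector gave 6 called genes (0.0324%), each higher, and with the block 33 (0.178%), 24 higher (0.129%) and 9 lower (0.0485%). SRF against the vector gave 5 (0.027%), 4 higher (0.0216%) and 1 lower (0.00539%), and with the block 45 (0.243%), 30 higher (0.162%) and 15 lower (0.0809%). Both comparisons share libraries with the one described here. CISH, for example, had 1.51 against the vector in SRF-PDGFRB (edgeR adjusted p 0.0379) and 0.14 in SRF (edgeR adjusted p 0.968), whereas PTER had 0.01 in SRF-PDGFRB and -1.31 in SRF (edgeR adjusted p 0.00707).

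Against the mean of the other 3 fusions, whose contrast holds no SRF or vector library, 152 genes were called (0.82%), 58 higher (0.313%) and 94 lower (0.507%), and 770 with the block (4.15%), 283 higher (1.53%) and 487 lower (2.63%). The SRF-PDGFRB libraries are shared with the comparison against SRF. Of the 16 higher genes 10 were called in the same direction (11 with the block), and of the 11 lower genes 3 (7 with the block). CXCL9 had at most 0.104 CPM in the 9 libraries of the other fusions and HLA-DRA at most 0.0836 CPM, and their log2 fold changes were 7.87 and 5.61 (edgeR adjusted p 0.000240 for both). APOL4 was at 3.67 (SE 0.27, edgeR adjusted p 7.27e-06), CISH at 1.28 (SE 0.17, edgeR adjusted p 0.00151) and CD74 at 2.42 (SE 0.26, edgeR adjusted p 0.000244). ST6GAL2 at -0.02, PTER at -0.08, KIF21B at 0.05 and SRF at -0.10 were close to 0 in this comparison and were not called. NAB2 was lower than in the other fusions, at -0.37 (SE 0.07, edgeR adjusted p 0.0234).

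**Figure D4:**
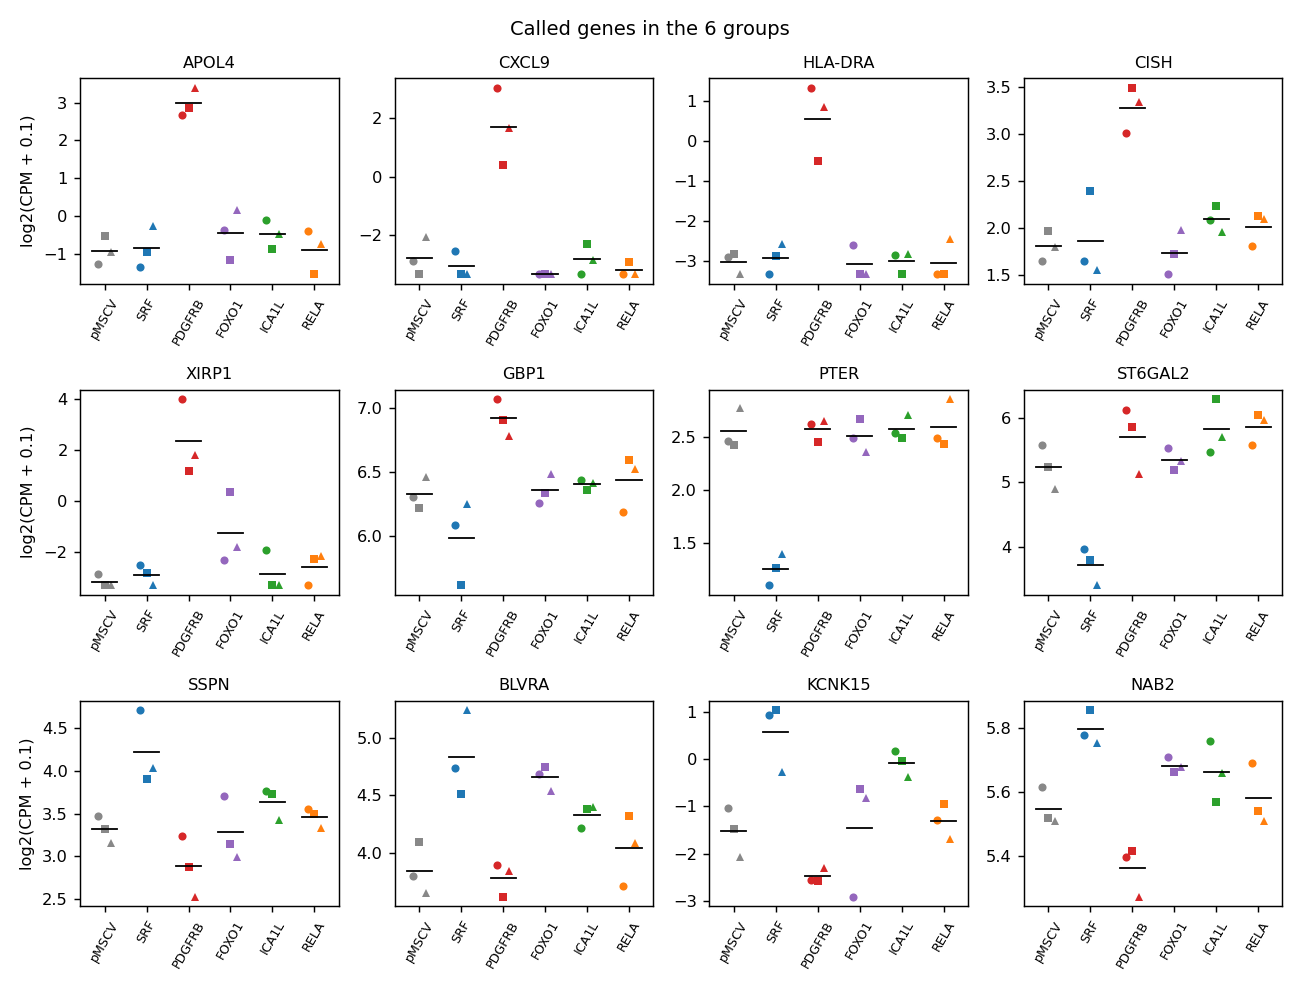
Points are libraries and bars group means of log2(CPM + 0.1) for 12 called genes in the vector, SRF and the 4 fusions, with shape for the replicate number. APOL4, CXCL9, HLA-DRA and CISH are high in the 3 SRF-PDGFRB libraries alone, and in PTER and ST6GAL2 the SRF libraries are the low ones.

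Further genes were called with the block only. By the largest fold changes among genes whose mean log2 CPM was 1 or more, with no overlap and 1 direction in all pairs, the higher ones were CXCL10, NKD1, SERPINB4, IDO1, IL7R, SOCS2, INAVA, AUTS2, LRRC15 and ROS1. LRRC15, a membrane protein of matrix-rich fibroblasts, was at 8.16, 17.4 and 5.28 CPM in SRF and 35.4, 59.6 and 41.5 CPM in SRF-PDGFRB. Replicate 2 was highest in both groups, with log2 ratios of 2.06, 1.78 and 2.89 within pairs (log2 fold change 2.12, SE 0.65, edgeR adjusted p 0.230; 0.00143 with the block). ROS1, a receptor tyrosine kinase, was at 4.15, 5.36 and 3.33 CPM in SRF and 13.1, 15.6 and 28.5 CPM in SRF-PDGFRB (log2 fold change 2.11, SE 0.55, edgeR adjusted p 0.169; 0.0112 with the block). IL7R, the interleukin-7 receptor, had 2.46 (SE 0.72, edgeR adjusted p 0.210; 0.0330 with the block), and SERPINB4, whose near copy SERPINB3 was at 1.28 without a call, had 2.69.

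The lower ones were C11orf96, CCN5, DDIT4L, MATN2, F2RL2, LMOD1, CDHR17P, AC007368.1, PTGS1 and SLIT3. MATN2, a matrix adaptor protein, was at 52.4, 38.9 and 16.6 CPM in SRF and 7.14, 8.41 and 6.35 CPM in SRF-PDGFRB (log2 fold change -2.33, SE 0.50, edgeR adjusted p 0.11; 0.00115 with the block). LMOD1, the smooth muscle leiomodin that nucleates actin, was at 22.3, 24.1 and 20.4 CPM in SRF, 3.90, 9.41 and 5.22 CPM in SRF-PDGFRB and 2.34, 5.97 and 2.63 CPM in the vector (log2 fold change -1.87, SE 0.61, edgeR adjusted p 0.263; 0.00672 with the block). The fusion libraries overlapped the vector and lay well under SRF. Of these 20 genes, 8 kept the call with the block in each of the 6 fits that left out 1 library: IDO1, SOCS2, INAVA, LRRC15, AC007368.1, LMOD1, MATN2 and CCN5. The others lost it in 2 to 5 of them. The adjusted p-value of ROS1 reached 0.0709 and that of SERPINB4 0.128 without SRF replicate 3, and that of IL7R 0.156 without SRF-PDGFRB replicate 1.

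Smooth muscle and cytoskeletal genes are the classic SRF targets. In the smooth muscle list 0 of 14 tested were called without the block and 1 with it, LMOD1. That 1 call is 7.14% of the list, against 2.34% of all genes tested, and the 0 stands beside 0.146%. At an unadjusted p-value under 0.05 without the block there were 3, and DESeq2 called 0. The list's median was 0.38, with 12 of 14 positive, and ACTG2 at 0.79, TAGLN at 0.31 and CNN1 at 0.14 were not called. In the cytoskeletal list 0 of 29 were called by edgeR in either fit, 3 had an unadjusted p-value under 0.05 without the block, and DESeq2 called 1. Its median was 0.09, and ACTB at 0.07, VCL at 0.27 and MYH9 at 0.28 were not called. At the shares over all genes, the 0 called by edgeR does not set this list apart. Among the cofactors of SRF, MYOCD at 1.89, MRTFA at -0.02, MRTFB at 0.24 and ELK1 at 0.04 were not called in either fit.

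Immediate early genes were mostly below 0. The median of the 19 was -0.80, with 17 negative, while 0 were called without the block, 0 had an unadjusted p-value under 0.05 in that fit, and DESeq2 called 0. With the block the median was -0.55 and 4 were called lower: ZFP36, EGR3, NR4A2 and IER2. That is 21.1% of the list, against 1.13% of all genes tested. ZFP36, which destabilises cytokine mRNA, was at 291, 24.9 and 134 CPM in SRF and 99.0, 14.9 and 50.3 CPM in SRF-PDGFRB. Replicate 2 was low in both groups, and each fusion library was below its same-numbered SRF library (log2 fold change -1.29 with the block, SE 0.22, edgeR adjusted p 0.632; 0.00868 with the block). FOS was at 1114, 24.7 and 631 CPM in SRF and 449, 21.2 and 381 CPM in SRF-PDGFRB, and EGR1 at 994, 113 and 418 CPM and 597, 67.3 and 392 CPM, and neither was called. With the block and SRF-PDGFRB replicate 1 left out, the adjusted p-values were 0.0679 for ZFP36, 0.212 for NR4A2 and 0.237 for IER2, and without SRF-PDGFRB replicate 3 that of EGR3 was 0.0574.

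ERK pathway outputs had 0 of 20 called by edgeR in either fit and by DESeq2, 1 at an unadjusted p-value under 0.05 without the block, and a median of 0.28, with DUSP6 at 0.36, SPRY4 at 0.36, ETV4 at 0.41 and FOSL1 at 0.57. Of the 6 PDGF ligands and receptors, PDGFRA was called lower with the block only. It was at 129, 86.6 and 56.4 CPM in SRF and 61.9, 40.5 and 30.8 CPM in SRF-PDGFRB (log2 fold change -1.06, SE 0.31, edgeR adjusted p 0.207; 0.0430 with the block). The groups overlapped, each fusion library was lower than its same-numbered SRF library, and the call was lost in 5 of the 6 fits that left out 1 library (edgeR adjusted p up to 0.183, without SRF-PDGFRB replicate 3). PDGFB at 2.56, PDGFC at 0.13 and PDGFA at 0.14 were not called.

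Cell cycle and replication genes were mostly above 0, with a median of 0.44 and 26 of 32 positive. Without the block 0 were called, 5 were higher at an unadjusted p-value under 0.05 and DESeq2 called 0. With the block 18 were higher at an unadjusted p-value under 0.05 and 1 was called, CENPF, a kinetochore protein (log2 fold change 0.99 with the block, SE 0.24, edgeR adjusted p 0.616; 0.0428 with the block). CENPF lost the call in each of the 6 fits that left out 1 library, with an adjusted p-value up to 0.220 without SRF-PDGFRB replicate 1. MKI67 at 0.91 and MCM2 at 0.99 just missed the threshold with the block (edgeR adjusted p 0.0514 and 0.0529). Collagens and matrix genes had 0 of 27 called by edgeR in either fit and by DESeq2, 1 at an unadjusted p-value under 0.05 without the block, and a median of 0.04, with COL1A1 at 0.05, FN1 at 0.03 and COL3A1 at -0.56.

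The 13 mitochondrially encoded genes were all negative, with a median of -0.35. None was called in either fit or by DESeq2, 7 were lower at an unadjusted p-value under 0.05 without the block, and SRF replicate 3 held the highest mitochondrial share. The inflammatory chemokine and cytokine list had 0 of 29 called in either fit or by DESeq2, 1 at an unadjusted p-value under 0.05 without the block, and a median of -0.10, with CXCL8 at -0.03 and CCL2 at -0.22. Transcript length moved with the fold change: the median log2 fold change went from -0.15 in the fifth of genes with the shortest transcripts to 0.13 in the fifth with the longest. The trend was strongest in pair 3, from -0.26 to 0.36, and between -0.08 and 0.05 in pairs 1 and 2. After a correction for length 33 genes were called without the block, 24 of the 27 among them.

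**Figure D5:**
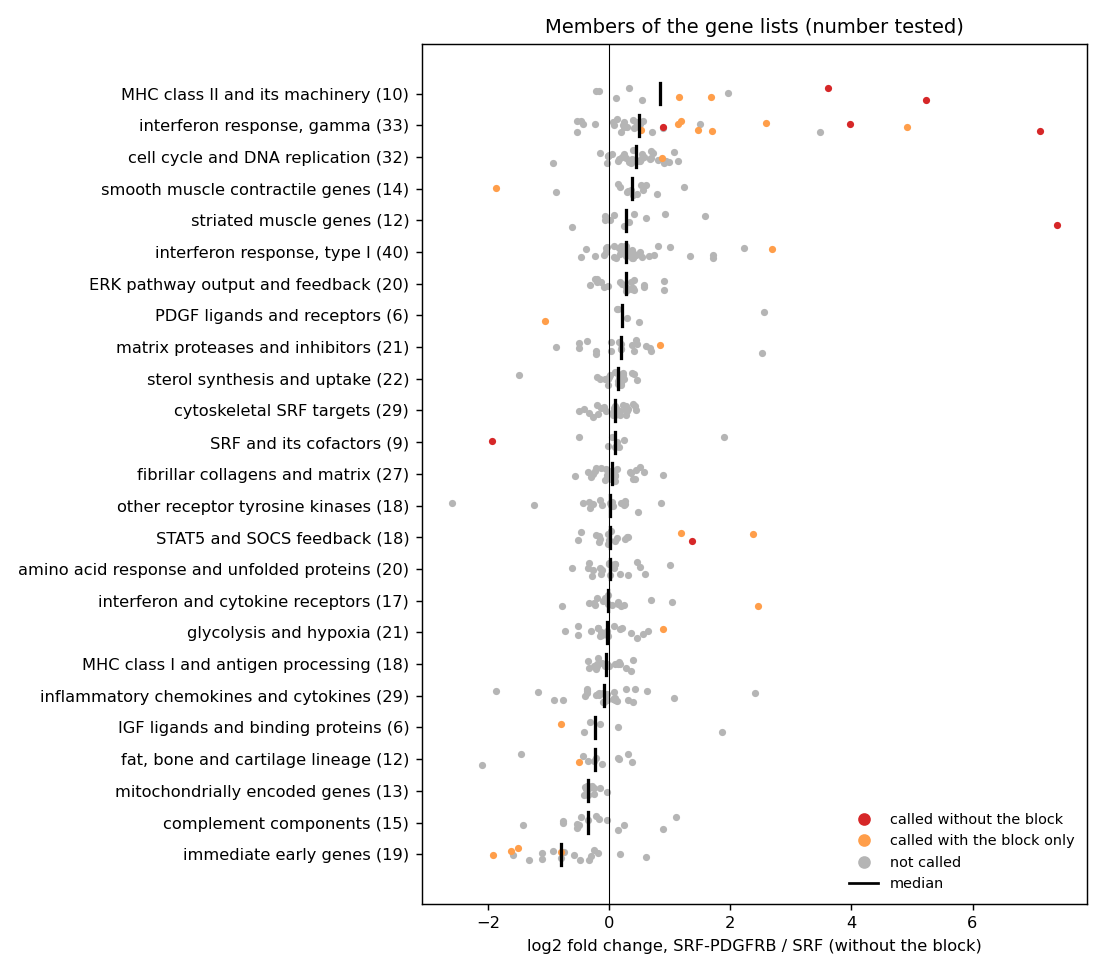
Points are the tested members of each list by their log2 fold change of SRF-PDGFRB over SRF, with the number tested in brackets and the median as a black bar. Members called without the block are red and those called with the block only are orange; the interferon-gamma and MHC class II lists hold 10 and 4 called genes, and the immediate early genes have the lowest median, -0.80.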

How the data were processed

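The submitters sequenced stranded mRNA libraries (TruSeq), per the labels' protocols. Reads were checked with FastQC 0.11.8, trimmed with Trimmomatic 0.39, aligned with HISAT2 to GRCh38 and counted with featureCounts of Subread 2.0.3, per the submitters' processing notes. The annotation release and the strand setting of the counting are not given in the sources used here. The authors deposited raw counts per Ensembl gene, 1 column for each of the 18 libraries, with totals of 19362319 to 29806771. The depth sets the precision of low genes: a count of 0 allows 3 counts, and intervals (Clopper-Pearson, 95%) cover counting error only, since reads without molecular identifiers are not independent molecules. Symbols came from a gene name table for 42045 of the 61487 identifiers and from GENCODE release 29 for 16375, and 3067 had none. Coordinates are those of GENCODE release 29 on GRCh38.

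Genes were filtered with filterByExpr (minimum count 10), scaled by TMM and fitted with edgeR 4.0.16 (R 4.3.3; robust quasi-likelihood) to all 18 libraries in 6 groups of 3, which share 1 estimate of the spread, with 12 residual degrees of freedom without and 10 with the replicate block. Tests are two-sided F tests, and the SE is the absolute log2 fold change over the square root of F. The pairing by number is read from the values, where each same-number correlation was over 0.1. Replicates of a group differed by more than sampling noise (chi-square per degree of freedom 22.8 to 139). CPM values are without TMM factors, and figures add 0.1 before taking log2.

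The comparison, its gene lists and the alternatives were chosen with earlier results of these data known. Named are SRF, PDGFRB, each gene called without the block, the 10 higher and 10 lower genes of largest fold change called with the block only (mean log2 CPM of at least 1, no overlap, same direction in 3 pairs), list members called in either fit, near copies and overlapping genes of these, and some further list members for their role. Those further members went beyond the first 4 by list order in some lists and were then chosen after their values were seen. Alternatives were DESeq2 1.42.0 size factors and Wald test, total count scaling, other count filters, a log2 fold change limit, the 6 libraries alone, leaving out libraries and, chosen after seeing the data, leaving out a number in both groups and a transcript length correction. On simulated counts for this comparison (18165 genes, 100 changed 2-fold and 100 4-fold), the test without the block recovered 76 and 94, with 8 false calls. With the block it recovered 73 and 94, with 10 false calls. The simulation held no replicate-number effect, and its changed genes were drawn from those averaging at least 100 counts. It therefore cannot show how the block handles such an effect, or how genes of low level are recovered. A few genes are not reported here.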

Additional observations from a re-analysis of the deposited data

How the results depend on the processing

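The 27 calls without the replicate block became 434 with the block, so the count depends on whether the numbers pair the libraries, and each of the 27 was also called with it. Without the block, other choices gave 229 calls by the DESeq2 Wald test, 44 with no count filter, 14 with at least 10 counts in every library and 0 with only the 6 libraries of the 2 groups in the fit, where 1569 genes had an unadjusted edgeR p-value under 0.05. DESeq2 size factors gave 27, total count scaling 36, a log2 fold change limit of 1 gave 24 and the length correction 33. Leaving out 1 library gave 3 to 17 calls, and leaving out number 1, 2 or 3 in both groups gave 2, 5 and 5. With the block, DESeq2 gave 1042, the 6 libraries alone 135, the log2 fold change limit 172, the length correction 507, 325, 250 and 223 without SRF replicate 1, 2 and 3, 85, 241 and 84 without SRF-PDGFRB replicate 1, 2 and 3, and numbers 1, 2 or 3 left out 57, 149 and 57. Total count scaling with the block called 400, of which 261 were higher (65.3% against 51.8%).

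Among the named genes, 878 of the values under alternatives without the block kept direction and side of the threshold, 230 lost the call, 65 gained it and 1 changed sign: NR4A2 ran from -3.15 to 0.17 with 1 library left out, the latter without SRF replicate 1. With the block 677 kept both and 242 lost the call. Against the other fusions, signs changed by total count scaling for ST6GAL2 (0.067) and PTER (0.0096). With 1 SRF-PDGFRB library left out they changed for ST6GAL2 (-0.23 to 0.24), KIF21B (-0.098 to 0.19), SRF (-0.35 to 0.15), PLIN2 (-0.21 to 0.21) and AC007368.1 (-1.09 to 0.079). The cause was not tested. Of the list medians, 331 moved by less than the spread between libraries and 46 by more. Depth limits statements on genes under about 0.155 CPM.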

Other observations

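Metabolic and lineage lists are given here as values. With the block, 4.76% of the glycolysis and hypoxia list was called, against 2.34% of all genes tested. It was 8.33% of the fat, bone and cartilage list and 16.7% of the IGF list. Each of these shares rests on 1 gene. In the glycolysis and hypoxia list PFKFB3, which makes the activator of phosphofructokinase, was called higher with the block only (117, 100 and 48.5 CPM in SRF; 213, 130 and 162 CPM in SRF-PDGFRB; log2 fold change 0.89, SE 0.35, edgeR adjusted p 0.343; 0.0409 with the block). PLIN2, a lipid droplet protein, was called lower with the block only (108, 72.1 and 82.7 CPM; 84.6, 48.2 and 56.8 CPM; log2 fold change -0.51, SE 0.34, edgeR adjusted p 0.580; 0.0117 with the block), and so was IGFBP6, an IGF binding protein (37.8, 40.3 and 76.5 CPM; 30.7, 23.2 and 37.8 CPM; log2 fold change -0.79, SE 0.22, edgeR adjusted p 0.192; 0.0443 with the block). Left-out libraries ended the calls with the block of PFKFB3 and IGFBP6 in 5 of 6 fits and of PLIN2 in 3 of 6, at up to 0.162 without SRF-PDGFRB replicate 3, 0.169 without SRF replicate 3 and 0.0893 without SRF-PDGFRB replicate 1.

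Complement components had a median of -0.35, with 11 of 15 negative. Of these, 0 were called by edgeR in either fit or by DESeq2, and 3 had an unadjusted p-value under 0.05 without the block. Of 22 sterol synthesis and uptake genes 0 were called by edgeR in either fit or by DESeq2, and 0 had an unadjusted p-value under 0.05 without the block, at a median of 0.14. The list of 20 amino acid response and unfolded protein genes also had 0 called by these tests, 2 at an unadjusted p-value under 0.05 and a median of 0.01. Among 18 other receptor tyrosine kinases tested, 0 were called by these tests, 2 had an unadjusted p-value under 0.05 and the median was 0.02.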
